A study of Sus scrofa with 9 samples.

Results

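UBD, also called FAT10, is a small protein built of a pair of ubiquitin-like domains (NCBI Gene ID 100294688). It was found by its symbol in the array's annotation, where 2 probe sets carried UBD as their only gene, and the one with the higher mean over all arrays stood for the gene. That made 1 gene of 12361 named genes on the array. UBD was chosen with its levels in these arrays known, including its high level after warm perfusion, so its own levels and differences are given as a description and carry no test.

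Biopsies came from 9 male Yorkshire pigs of 30 kg, with 1 Affymetrix array per animal. In each pig the right kidney was left without blood flow for 30 min while warm, removed, flushed and put back into the same animal, and the left kidney was taken out in the same operation. The NEVKP kidneys (n = 3) were perfused near body temperature outside the animal for 8 h before they were returned (normothermic ex vivo kidney perfusion). The SCS kidneys (n = 3) lay for 8 h in static cold storage, and the No Storage kidneys (n = 3) were returned at once. All biopsies date from day 3 after the operation. No group is an unoperated kidney, so every level is that of a kidney that had been through warm ischemia and autotransplantation. The median log2 intensity per array ranged from 5.70 to 5.80, and with so few arrays a group each mean is known only roughly. The kidney label fitted its markers: all 9 measured proximal tubule, 5 loop and distal tubule, 8 collecting duct and 3 podocyte markers were above the dim limit of 3.92, the 25% point of mean log2 intensity over all probe sets.

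UBD is joined through its free C-terminal glycines to other proteins, which marks them for the proteasome. In human and mouse cells its gene is switched on by tumour necrosis factor and interferon gamma acting together, and it lies at the edge of the major histocompatibility complex. In human tissue it is known from dendritic cells, B cells and thymic epithelium, and from tubule cells of inflamed or virus-infected kidneys. The enzyme UBA6 activates it, the enzyme UBE2Z carries it, and the adaptor NUB1 speeds its breakdown together with the proteins it marks.

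UBD was high in all 3 warm-perfused kidneys and low in all others. Its log2 intensity was 8.48, 8.05 and 8.10 in NEVKP replicates 1, 2 and 3. It was 6.53, 7.14 and 6.49 in SCS replicates 1, 2 and 3, and 6.87, 6.92 and 6.75 in No Storage replicates 1, 2 and 3. The NEVKP arrays overlapped with neither of the other groups, whereas the SCS values spread to both sides of the No Storage values. The group means were 8.21 ± 0.24 in NEVKP, 6.72 ± 0.37 in SCS and 6.85 ± 0.09 in No Storage (log2 intensity, SD, n = 3 each).

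Setting NEVKP beside No Storage compares 8 h of warm perfusion, and with it 8 h outside the animal, with return at once. There the UBD means differed by 1.36 (log2, SE 0.19 from limma), a ratio of 2.57. The comparison of NEVKP with SCS sets the ways of keeping a kidney against each other, and there UBD differed by 1.49 (SE 0.19), a ratio of 2.81. In SCS against No Storage the difference was -0.13 (SE 0.19), a ratio of 0.915. In order of level NEVKP came first, No Storage next and SCS last. The step between No Storage and SCS was smaller than the SD within SCS, while the step down to them from NEVKP was larger than the SD of every group. These steps describe values that were known when UBD was chosen, and are no test. In whole biopsies more cells with UBD transcript and more UBD transcript per cell cannot be told apart.

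**Figure D1:**
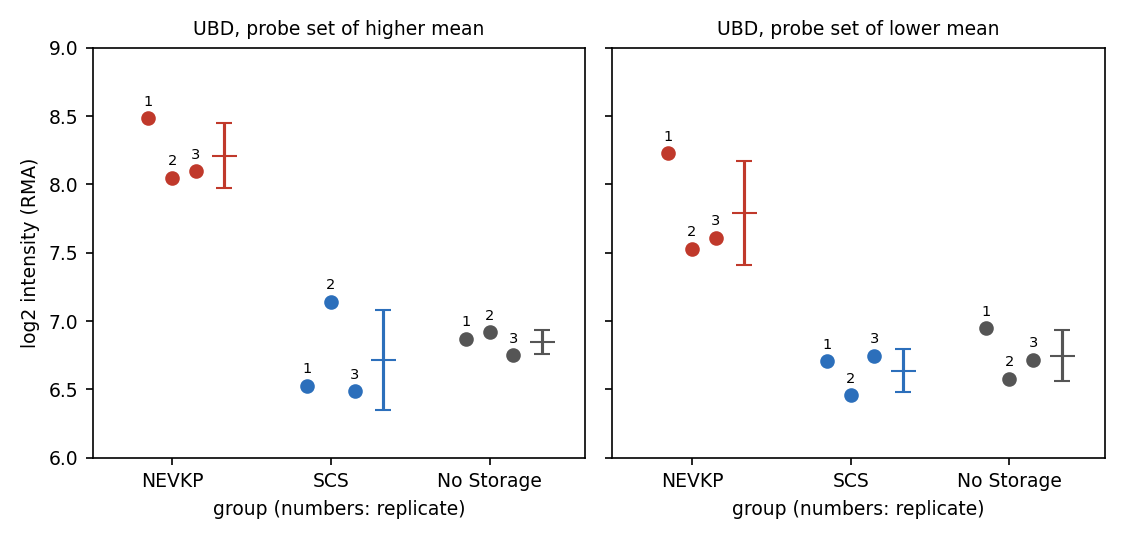
Log2 intensity of UBD in each array (points, with the replicate number) for the chosen probe set on the left and the second on the right, and the mean ± SD of each group (n = 3) beside its points. The NEVKP arrays lie above all SCS and No Storage arrays in both panels, and NEVKP replicate 1 is the highest in both.

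The second UBD probe set showed the same grouping on the same RNA. It read 8.23, 7.53 and 7.61 in NEVKP replicates 1, 2 and 3, 6.71, 6.46 and 6.75 in SCS, and 6.95, 6.58 and 6.72 in No Storage. NEVKP exceeded No Storage by 1.04 and SCS by 1.15 on this probe set, and SCS differed from No Storage by -0.11. Both probe sets placed NEVKP replicate 1 above the other 2 NEVKP arrays. They disagreed about SCS replicate 2, which was the highest SCS array on the chosen probe set (7.14) and the lowest on the second (6.46). That was the largest distance between the probe sets in any array, at 0.68, and SCS replicate 2 also had the lowest array weight in limma (0.464). The wide SD of UBD in SCS (0.37) was accordingly 0.16 on the second probe set.

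On its chosen probe set, UBD had a wider distance between the NEVKP arrays and the rest than any other named gene. The lowest NEVKP array exceeded the highest of the other 6 arrays by 0.91 (log2). Among the 12361 named genes, 140 (1.13%) had all 3 NEVKP arrays above the other 6, and 2 had them above by more than 0.5. The other gene past 0.5 was CXCL10, a chemokine that draws T cells, at 0.59. CMAH, which makes the sialic acid Neu5Gc, followed at 0.39, and BANK1, named only for its rank here, at 0.35. GBP1, an interferon-induced GTPase, stood at 0.33 and MPEG1, a pore-forming protein of macrophages, at 0.31. On the second UBD probe set that distance was 0.58, below the 0.59 of CXCL10. These ranks describe the same arrays from which UBD was picked.

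**Figure D2:**
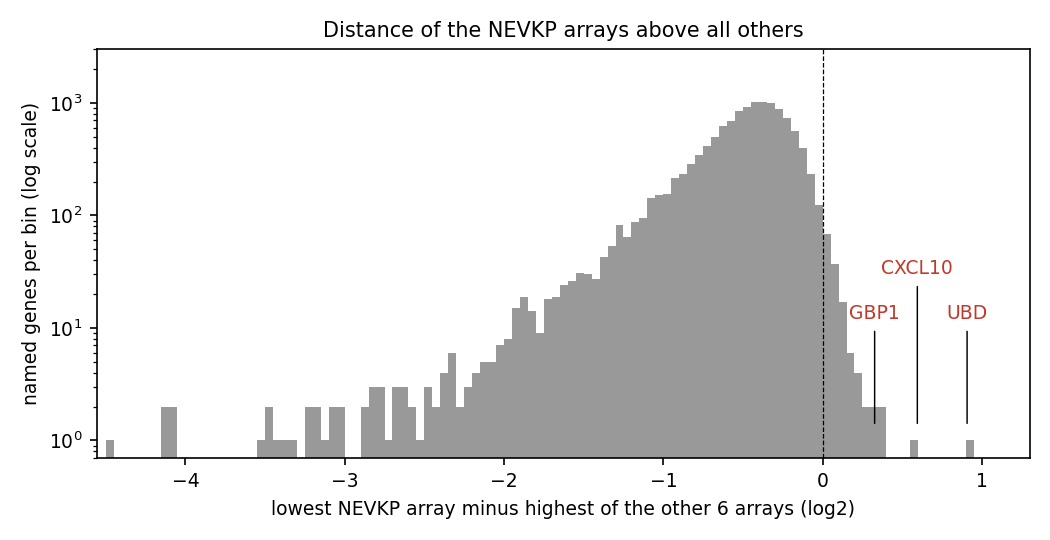
Number of named genes (log axis) by the log2 distance from the highest of the 6 SCS and No Storage arrays up to the lowest NEVKP array, in bins of width 0.05. Most genes lie below 0, where the groups overlap or NEVKP is lower, and UBD lies farthest to the right at 0.91, with CXCL10 at 0.59.

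Differences were small in the machinery that joins UBD to proteins and clears it. Of 10 listed partners 6 were measured, and UBE2Z, PSMD4 and HDAC6 were among those not analysed here. With limma and Benjamini-Hochberg adjustment over all 19124 probe sets, 0 of the 6 passed an adjusted p of 0.05 between NEVKP and No Storage, as did 0.0% of all probe sets, and 0 of the 6 had an unadjusted p under 0.05, where 5.16% of named genes did with a higher and 4.76% with a lower level. Their median log2 difference was 0.08, against -0.0070 for all named genes. UBA6 was 7.75, 7.65 and 7.37 in NEVKP, against 7.51, 7.62 and 7.64 in No Storage, and the groups overlapped. NUB1 was 8.74, 8.89 and 8.99 in NEVKP, against 8.58, 8.62 and 8.54 in No Storage. NUB1 was thus the partner whose 3 NEVKP arrays lay above every No Storage array, which 8.74% of named genes did, and its difference was 0.29 (SE 0.13, limma adjusted p = 0.551). Its NEVKP arrays also lay above SCS, as in 5.83% of named genes, where it read 8.71, 8.34 and 8.63, with SCS replicate 1 close to the lowest NEVKP array.

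The remaining partners differed by at most 0.31 in size between NEVKP and No Storage. SQSTM1, an autophagy receptor that UBD modifies, differed by -0.31 (limma adjusted p = 0.591). MAD2L1, the spindle checkpoint protein that binds UBD, differed by 0.29, and OTUB1, a deubiquitinase that UBD stabilises, by 0.17. VCP, a segregase on the same list, differed by -0.02. In SCS against No Storage 0 of the 6 partners passed, where 0.162% of all probe sets did (0.068% higher and 0.0941% lower), and 0 had an unadjusted p under 0.05 in limma, where 7.79% of named genes did with a higher and 9.05% with a lower level. OTUB1 there lay above No Storage in all 3 SCS arrays, as 11.7% of named genes did, with a difference of 0.26 (limma adjusted p = 0.437). Between NEVKP and SCS 0 of the 6 passed, where 0.0% of all probe sets did, and NUB1 had an unadjusted p under 0.05, as 4.42% of named genes did with a higher and 3.29% with a lower level, with a difference of 0.32 (limma adjusted p = 0.648).

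Other members of the ubiquitin-like family had small differences too. Of 21 listed modifiers and ubiquitin genes 14 were measured, ISG15 and the SUMO genes not among them. In limma 0 of the 14 passed in each of the 3 comparisons, where 0.0%, 0.162% and 0.0% of all probe sets did (NEVKP against No Storage, SCS against No Storage, NEVKP against SCS). Counted at unadjusted p below 0.05, they were 0 in NEVKP against No Storage, 1 in SCS against No Storage (MAP1LC3B, an autophagosome protein, at -0.30) and 0 in NEVKP against SCS. Of all named genes, 5.16% were higher and 4.76% lower by that measure in NEVKP against No Storage, 7.79% and 9.05% in SCS against No Storage, and 4.42% and 3.29% in NEVKP against SCS. The 14 log2 differences between NEVKP and No Storage ran from -0.30 to 0.32, with a median of 0.02. UBB, a ubiquitin gene, lay above No Storage in all 3 NEVKP arrays, by 0.23 (limma adjusted p = 0.584). NEDD8, which activates cullin ligases, differed by 0.13. OASL, an interferon-induced protein with ubiquitin-like repeats, was 3.95, 4.18 and 5.27 in NEVKP, against 3.92, 4.19 and 4.32 in No Storage. OASL therefore stood out in NEVKP replicate 3 and overlapped otherwise.

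Enzymes of the other modifier pathways included the ISG15 system, whose measured genes were highest in NEVKP replicate 3. Of 17 listed enzymes 10 were measured, and in limma 0 passed between NEVKP and No Storage, as did 0.0% of all probe sets. With a higher level, 3 had an unadjusted p under 0.05, as did 5.16% of named genes. Those were USP18, which removes ISG15, at 1.11, UBA7, which activates it, at 0.91, and HERC5, its ligase, at 1.06. USP18 was 5.95, 5.97 and 7.81 in NEVKP, against 5.36, 5.15 and 5.87 in No Storage. UBA7 was 5.84, 6.12 and 7.54 in NEVKP, against 5.65, 5.26 and 5.87 in No Storage. In both, NEVKP replicate 3 was far above replicates 1 and 2, an order that UBD did not show. In SCS against No Storage and in NEVKP against SCS 0 of the 10 enzymes passed, with 1 and 0 higher at an unadjusted p under 0.05, against 7.79% and 4.42% of named genes. The median between NEVKP and SCS was 0.20, but 0.09 without NEVKP replicate 3, 0.09 without SCS replicate 2 and 0.31 without SCS replicate 1.

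Among the cytokines that induce UBD in human cells, TNF, which encodes tumour necrosis factor, was 5.56, 6.36 and 5.60 in NEVKP, against 4.88, 5.21 and 4.86 in No Storage. The groups did not overlap, the difference was 0.86 (SE 0.23, limma adjusted p = 0.395), and the highest array was NEVKP replicate 2. TNF in SCS was 5.24, 5.22 and 5.68, which also lay above every No Storage array, with a difference of 0.40 (limma adjusted p = 0.445). IFNG, which encodes interferon gamma, was dim, with a mean below 3.92. It read 2.46, 2.48 and 2.61 in NEVKP, 2.47, 2.75 and 2.55 in SCS, and 2.93, 2.20 and 2.27 in No Storage, with no order between groups. IL6, a further inflammatory cytokine, was 5.15, 6.58 and 6.91 in NEVKP and 7.16, 6.06 and 5.91 in SCS, against 4.54, 4.98 and 5.06 in No Storage. IL6 thus lay above No Storage in both preserved groups, by 1.35 in NEVKP and by 1.52 in SCS, whereas UBD in SCS overlapped with No Storage. The test of NEVKP against SCS for IL6 gave -0.16 (limma adjusted p = 0.939).

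Receptors and signal carriers of these cytokines varied, and 0 of them passed the threshold in limma in either group. IFNGR1, a chain of the interferon gamma receptor, differed by 0.38 in NEVKP and 0.26 in SCS, where it overlapped with No Storage. TNFRSF1A, the main receptor for tumour necrosis factor, differed by 0.28 and 0.42 in the same order. The transcription factor genes NFKB1 (0.31 in NEVKP and 0.38 in SCS), RELA (0.21 and 0.30) and STAT3 (0.21 and 0.27) had no larger step in NEVKP than in SCS. IL6ST, the shared receptor chain of the IL6 family, differed by 0.27 in NEVKP and 0.03 in SCS, and STAT2, which carries interferon signals, by 0.26 and -0.07. The kinase genes JAK1 and JAK2, named after their values were seen, differed by 0.02 and -0.05 in NEVKP and by -0.01 and 0.08 in SCS, and overlapped with No Storage in both groups. IRF1, a transcription factor induced by interferon gamma, was 6.68, 7.41 and 7.45 in NEVKP and 7.10, 6.71 and 6.92 in SCS, against 6.38, 6.24 and 6.49 in No Storage. It exceeded No Storage by 0.81 (limma adjusted p = 0.395) in NEVKP and by 0.54 (limma adjusted p = 0.242) in SCS.

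Of the 33 listed cytokines, receptors and signalling genes 21 were measured. In NEVKP against No Storage limma called 0 of the 21, and 9 were higher at an unadjusted p under 0.05, as were 5.16% of named genes. In 14 of the 21 all 3 NEVKP arrays lay above every No Storage array, as in 8.74% of named genes, and in 1, LTA, they lay below, as in 9.31%. In SCS against No Storage 0 passed, 8 were higher at an unadjusted p under 0.05, as were 7.79% of named genes, and 12 of the 21 lay above without overlap, as in 11.7% of named genes. Between NEVKP and SCS 0 passed, 0 had an unadjusted p under 0.05, 0 of the 21 lay above without overlap, as in 5.83% of named genes, and 1, again LTA, lay below, as in 6.56%. The medians were 0.28 in NEVKP and 0.32 in SCS relative to No Storage. UBD, with 1.49 between NEVKP and SCS, stood outside the range of these genes in that comparison, which ran from -0.29 to 0.46. Because UBD was chosen with its high NEVKP level known, that contrast is a description only.

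**Figure D3:**
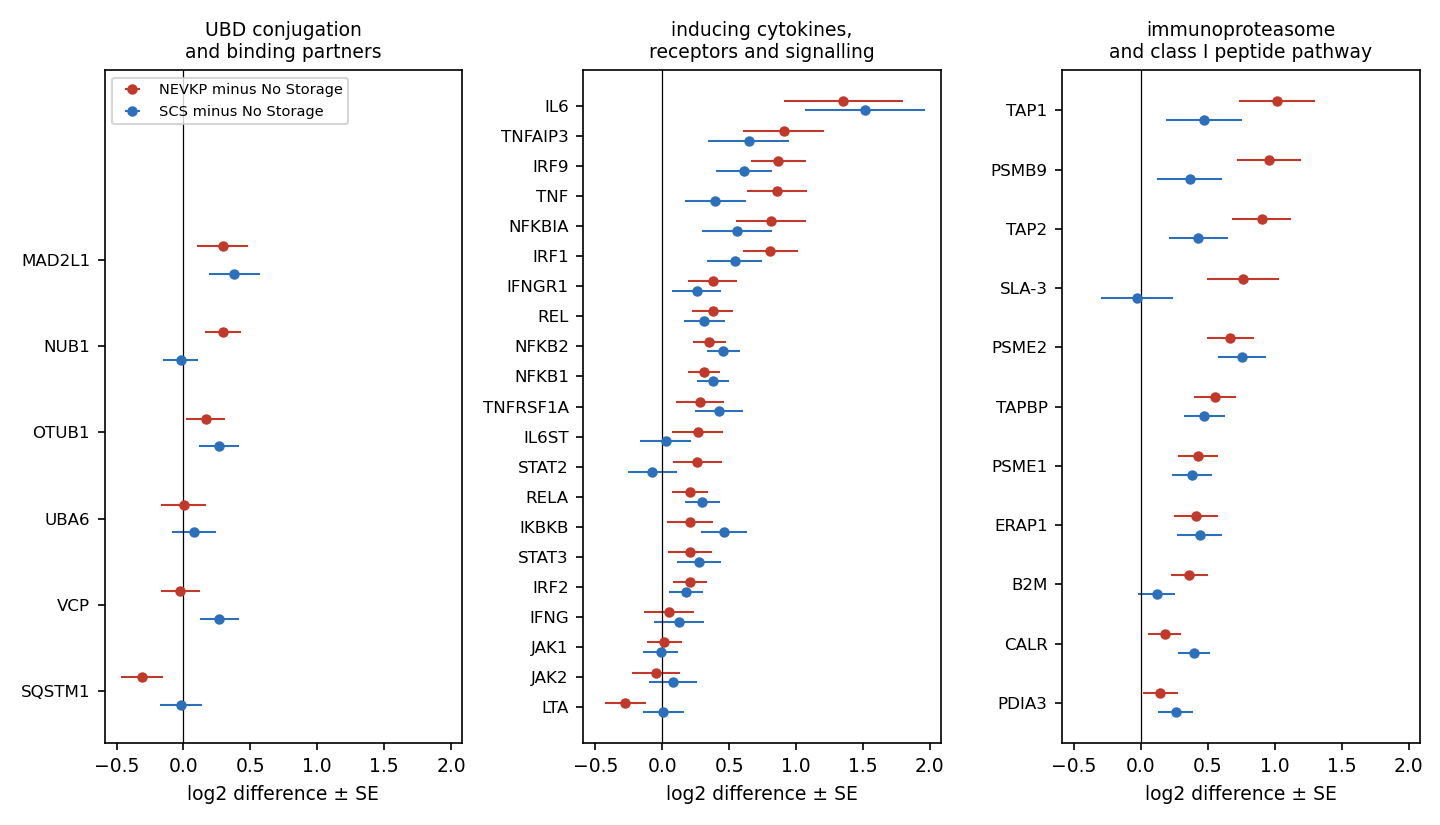
Log2 difference from No Storage ± SE (limma) of each measured gene for NEVKP (red) and SCS (blue), for the UBD partners, the inducing cytokines with their signalling genes, and the immunoproteasome and class I genes. Partners scatter about 0, and most cytokine and class I genes lie to the right of 0 in both groups, with SLA-3 at 0.77 in NEVKP and -0.03 in SCS.

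Genes of the peptide supply for class I molecules, into which UBD feeds proteins for degradation, lay above No Storage in all 11 measured cases. Of 16 listed genes 11 were measured, and all 11 had their 3 NEVKP arrays above every No Storage array, as did 8.74% of named genes. In limma 0 passed in NEVKP against No Storage and 9 were higher at an unadjusted p under 0.05, as were 5.16% of named genes. PSMB9, an immunoproteasome subunit, was 6.68, 7.13 and 7.70 in NEVKP, against 6.47, 5.88 and 6.30 in No Storage, a difference of 0.96 (limma adjusted p = 0.388). TAP1 and TAP2, the peptide transporter, differed by 1.01 and 0.90, and the proteasome activator gene PSME2 by 0.67. B2M, the light chain of class I, differed by 0.36. In PSMB9 and TAP1 the highest array was NEVKP replicate 3 and the lowest NEVKP array was replicate 1, the one in which UBD was highest.

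In SCS kidneys some of these class I genes also lay above No Storage, which UBD did not. In 7 of the 11 genes all SCS arrays lay above every No Storage array, as in 11.7% of named genes, and 0 passed in limma with 5 higher at an unadjusted p under 0.05, as were 7.79% of named genes. PSME2 differed by 0.76 in SCS (limma adjusted p = 0.0988), TAPBP, the tapasin gene, by 0.47 and PSMB9 by 0.36. The 4 that overlapped were TAP2 (0.43), the peptide-trimming enzyme gene ERAP1 (0.44), B2M (0.12) and SLA-3 (-0.03). SLA-3, a pig class I heavy chain, was 8.58, 9.38 and 8.69 in NEVKP, 8.17, 8.55 and 7.54 in SCS, and 8.20, 8.21 and 7.95 in No Storage. Probes for class I chains can share sequence, so the SLA-3 signal may include other class I genes. Between NEVKP and SCS 0 of the 11 passed, 2 were higher at an unadjusted p under 0.05 in limma, as were 4.42% of named genes, and 3 (PSMB9, SLA-3 and B2M) lay above without overlap, as in 5.83% of named genes, while CALR, a class I chaperone gene, lay below, as in 6.56%. Constitutive proteasome subunits, of which 22 of 31 were measured, had a median of 0.05 in NEVKP and 0.06 in SCS relative to No Storage, with 0 past the threshold. At an unadjusted p under 0.05 limma had 0 higher and 0 lower in NEVKP, and 3 higher and 1 lower in SCS, against 7.79% and 9.05% of named genes.

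The interferon and NF-kappaB response lists were highest in other NEVKP animals than UBD was. Relative to the No Storage mean, UBD was 1.64, 1.20 and 1.25 in NEVKP replicates 1, 2 and 3 (log2). The mean over 17 measured type I interferon response genes was 0.52, 0.45 and 2.05 in the same arrays. The mean over 14 interferon gamma response genes was 0.41, 0.59 and 1.33, and that over 14 NF-kappaB response genes was 0.46, 1.58 and 0.62. In No Storage the lists ran from -0.48 to 0.49 (type I), -0.20 to 0.13 (interferon gamma) and -0.07 to 0.08 (NF-kappaB). The type I list in NEVKP replicate 2 thus lay below No Storage replicate 3, whereas the other 2 lists in NEVKP lay above all No Storage arrays. UBD was therefore highest in the animal in which the interferon gamma and NF-kappaB lists were lowest among NEVKP arrays, and its range across the 3 animals, 0.44, was narrower than that of each of these lists. On the second UBD probe set the range across these animals was 0.70.

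**Figure D4:**
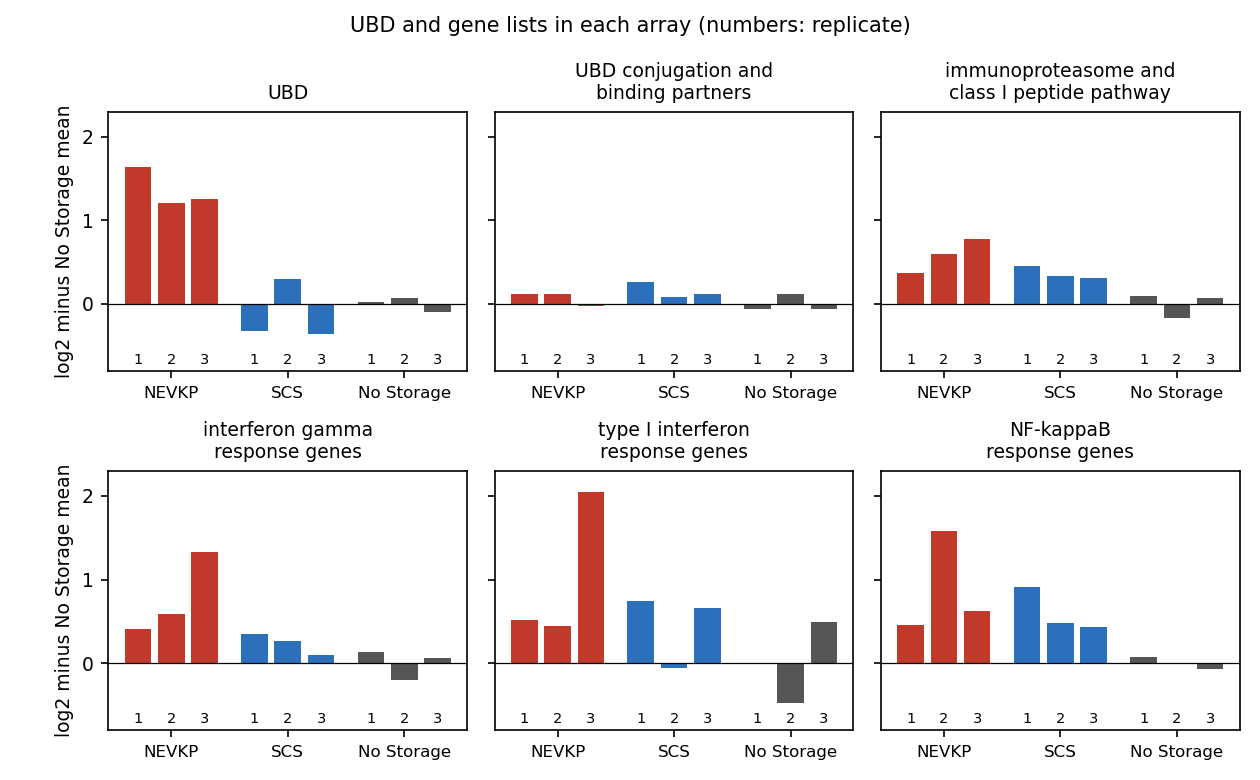
UBD and the mean of each gene list in every array, as log2 minus the No Storage mean (bars, with replicate numbers below). UBD, on its chosen probe set, has similar bars in the 3 NEVKP arrays and none of that size elsewhere. The type I interferon list peaks in NEVKP replicate 3 at 2.05 and the NF-kappaB list in NEVKP replicate 2 at 1.58.

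The list medians depended on those single animals. The type I interferon list had a median of 1.11 between NEVKP and No Storage and 0.51 without NEVKP replicate 3, with 0 of 17 genes past the threshold in limma and 11 higher at an unadjusted p under 0.05, as were 5.16% of named genes. The interferon gamma list had a median of 0.81 and 0.45 without NEVKP replicate 3, with 0 of 14 past and 8 higher at an unadjusted p under 0.05. The NF-kappaB list had a median of 0.90 and 0.46 without NEVKP replicate 2, with 0 of 14 past and 9 higher at an unadjusted p under 0.05 in limma. UBD without the same arrays differed from No Storage by 1.42 (without replicate 3) and 1.44 (without replicate 2). It was 1.23 without NEVKP replicate 1. Among the type I genes IFIT2, which blocks viral translation, differed by 1.27 (limma adjusted p = 0.444) and MX2, an antiviral GTPase, by 1.19. Between NEVKP and SCS the type I median was 0.53 and the interferon gamma median 0.27, with 0 genes past the threshold in limma and 2 and 4 higher at an unadjusted p under 0.05, as were 4.42% of named genes. These medians were 0.12 and 0.10 without NEVKP replicate 3, 0.84 and 0.48 without NEVKP replicate 1. The type I median was also 0.83 without NEVKP replicate 2 and 0.27 without SCS replicate 2, and the interferon gamma median 0.42 without SCS replicate 1.

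Single response genes varied in how far they resembled UBD. CXCL10 was 7.86, 8.24 and 9.99 in NEVKP, 7.19, 7.04 and 7.12 in SCS, and 7.27, 6.22 and 7.11 in No Storage. Like UBD it separated NEVKP from all other arrays, but its NEVKP values were more widely spread than those of UBD. GBP1 was 7.26, 7.54 and 8.26 in NEVKP, 6.94, 6.39 and 6.46 in SCS, and 6.79, 5.80 and 6.37 in No Storage, with the same separation and a difference of 1.37 from No Storage (limma adjusted p = 0.342). CXCL9, a chemokine typical of interferon gamma, was 6.42, 6.21 and 8.27 in NEVKP, 4.93, 5.89 and 5.49 in SCS, and 6.18, 6.34 and 6.64 in No Storage. In CXCL9, 2 of 3 NEVKP arrays lay among the No Storage arrays, while all 3 lay above SCS, with a difference of 1.53 (limma adjusted p = 0.587). IDO1, a tryptophan-degrading enzyme, was dim and overlapped. CCL2, a monocyte chemokine and NF-kappaB target, was 8.82, 10.45 and 9.28 in NEVKP and 9.92, 9.39 and 9.36 in SCS, against 7.99, 8.18 and 7.72 in No Storage. CCL2 therefore lay above No Storage in both preserved groups, unlike UBD.

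In SCS against No Storage the interferon gamma list had a median of 0.21 and the type I list one of 0.48, with 0 genes past the threshold in limma. At an unadjusted p under 0.05, 4 of 14 and 0 of 17 were higher, as were 7.79% of named genes. The interferon gamma median was 0.05 without No Storage replicate 2 and 0.33 without No Storage replicate 1. The type I median was 0.26 without No Storage replicate 2, 0.78 without No Storage replicate 3 and 0.80 without SCS replicate 2. For the NF-kappaB list the SCS median was 0.51, with 0 past the threshold in limma and 5 higher and 1 lower of 14 at an unadjusted p under 0.05, against 7.79% and 9.05% of named genes. UBD in SCS lay between -0.36 and 0.29 of the No Storage mean.

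Cell markers that could go with UBD were read in the same way. Of 11 dendritic cell markers 6 were measured. CD86, a costimulatory ligand, was 6.84, 7.12 and 6.83 in NEVKP, against 6.08, 5.53 and 5.88 in No Storage (difference 1.10, limma adjusted p = 0.299), and CD80 and CD83 differed by 0.91 and 0.80. The other 3 measured were XCR1, a chemokine receptor, at 0.33, the growth factor receptor gene FLT3 at 0.01 and the homing receptor gene CCR7 at -0.09, each overlapping with No Storage. The list's mean relative to No Storage ran from 0.29 to 0.75 in NEVKP, 0.30 to 0.34 in SCS and -0.16 to 0.11 in No Storage, with 0 of 6 past the threshold in limma and 3 higher at an unadjusted p under 0.05, as were 5.16% of named genes. Its NEVKP median of 0.57 was 0.31 without NEVKP replicate 2. In SCS, CD86 (0.60) and CD83 (0.48) also lay above every No Storage array, as 11.7% of named genes did. The other measured markers overlapped there. Between NEVKP and SCS, CD80 lay above without overlap, as 5.83% of named genes did, and CD86 and CD83 overlapped. The list's median there was 0.21, but -0.02 without NEVKP replicate 2 and 0.43 without NEVKP replicate 3.

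Of 14 monocyte and macrophage markers 12 were measured, and their mean ran from 0.21 to 0.68 in NEVKP, -0.11 to 0.27 in SCS and -0.04 to 0.04 in No Storage. In NEVKP against No Storage 0 passed in limma, 5 were higher at an unadjusted p under 0.05, as were 5.16% of named genes, and the median of 0.43 was 0.18 without NEVKP replicate 2. Of 10 B and plasma cell markers 6 were measured, with ranges of 0.02 to 0.42 in NEVKP, -0.16 to 0.35 in SCS and -0.23 to 0.13 in No Storage. PAX5 was dim in that list. JCHAIN, which joins secreted antibodies, differed by 1.37 (limma adjusted p = 0.456) and was high in SCS replicate 2 as well, at 10.89. All 13 T and NK cell markers were measured, with ranges of 0.16 to 0.20 in NEVKP, -0.01 to 0.06 in SCS and -0.14 to 0.08 in No Storage. Every NEVKP array thus lay above all others in the mean of this list. Its members differed by -0.23 to 0.85 between NEVKP and No Storage, with a median of 0.10. The largest difference was in CD2 (limma adjusted p = 0.444), whose NEVKP arrays lay above all others, as in 1.13% of named genes. In NEVKP against No Storage limma called 0 of the 6 B cell and 0 of the 13 T and NK cell markers, and 0.0% of all probe sets. At an unadjusted p under 0.05, 1 and 2 of them were higher, as were 5.16% of named genes. The part of these cells in the UBD levels was not tested.

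Markers of injured tubules had their higher median in SCS, where UBD was low, but their array means overlapped between NEVKP and SCS. Of 10 injured tubule markers 9 were measured, with a median of 0.42 in NEVKP and 0.61 in SCS relative to No Storage and 0 past the threshold in limma. The NEVKP median was 0.25 without NEVKP replicate 2, and 2 markers in NEVKP and 5 in SCS were higher at an unadjusted p under 0.05, against 5.16% and 7.79% of named genes. Their mean per array ran from 0.21 to 0.85 in NEVKP and 0.33 to 0.73 in SCS. The median between NEVKP and SCS was -0.19, and ran from -0.30 to 0.01 with centred arrays or without single arrays. LCN2, a secreted injury marker, was 8.46, 9.95 and 9.47 in NEVKP, 10.15, 9.43 and 9.20 in SCS, and 9.37, 8.74 and 9.06 in No Storage. HAVCR1 was dim in all groups. PROM1, which marks dedifferentiated tubule cells, had the opposite order to the list's medians, with 0.70 in NEVKP and -0.75 in SCS relative to No Storage, overlapping with it in both. Its NEVKP arrays, 6.17, 6.84 and 6.09, lay above those of SCS, 4.22, 5.47 and 5.05, by 1.45 on average (limma adjusted p = 0.599). Loop and distal tubule markers had a median of 0.19 in NEVKP and -1.58 in SCS relative to No Storage (-0.98 without SCS replicate 1). Proximal tubule markers had -0.51 (-0.23 without NEVKP replicate 2) and -0.81. In both lists 0 passed the threshold in limma, and their part in the UBD levels was not tested.

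UBD lies on chromosome 7, and its neighbours had medians close to 0. The 10 nearest named genes on each side were taken in the order of the RefSeq gene table of Sscrofa11.1, since the array annotation names no build. Of these 20 genes 0 passed in limma in each of the 3 comparisons, with 1 higher at an unadjusted p under 0.05 in NEVKP against No Storage (5.16% of named genes), 1 lower in SCS against No Storage (9.05%), and 1 higher and 2 lower in NEVKP against SCS (4.42% and 3.29%). Their median difference was -0.03 in NEVKP and -0.03 in SCS relative to No Storage, and 5 of the 20 were dim. Between NEVKP and No Storage 2 of the 20 lay above without overlap, as 8.74% of named genes did, and 1 lay below, as 9.31% did. The pair above were GABBR1, a GABA receptor gene (0.36), and PGBD1, a transposon-derived gene (0.22). ZBED9, the nearest named gene on one side, differed by 0.62 (limma adjusted p = 0.456) with overlapping arrays, and the olfactory receptor gene OLF42-3, the nearest on the other, by 0.34. TRIM31, a ubiquitin ligase, differed by -0.59 and RNF39, a RING finger gene, by -1.09. RNF39 was 6.61, 6.22 and 5.40 in NEVKP, 7.92, 7.60 and 7.90 in SCS, and 6.28, 8.47 and 6.73 in No Storage. Between NEVKP and SCS 3 of the 20 lay above without overlap, as 5.83% of named genes did, and 2 below, as 6.56% did. PGBD1 there differed by 0.66 (limma adjusted p = 0.493) and RNF39 by -1.73 (limma adjusted p = 0.563).

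Few genes had a profile close to that of UBD. Likeness was measured as the root mean square distance between a gene and UBD over the 9 arrays, each centred on its own mean (log2). A flat gene would lie at 0.71, the median of 10219 genes above the dim limit was 0.74, and the second UBD probe set lay at 0.32, closer than any of the genes. NDRG4, of the NDRG family, came nearest at 0.38, followed by SLA-3 (0.45), MPEG1 (0.45), LRCH2 (0.46), CMAH (0.47) and RIMKLB (0.47). Then came the adrenergic receptor gene ADRA1B (0.48), CXHXorf21 and ABCC6 at 0.49, MSRB3 at 0.50, and the dystrophin gene DMD and N4BP2L1 at 0.50.

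MPEG1 was 10.12, 10.15 and 9.58 in NEVKP, 9.22, 8.82 and 9.27 in SCS, and 8.93, 8.69 and 9.21 in No Storage, and it separated NEVKP from all other arrays. NDRG4 was 8.09, 7.51 and 8.22 in NEVKP, 6.96, 7.12 and 6.79 in SCS, and 7.58, 7.13 and 7.16 in No Storage, so NEVKP replicate 2 lay below No Storage replicate 1. The choice of genes was loose. Ranking by Pearson correlation in place of distance shared 2 of the 12 genes, and leaving out 1 array in turn shared 2 to 9 of the 12, with the fewest without NEVKP replicate 1.

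**Figure D5:**
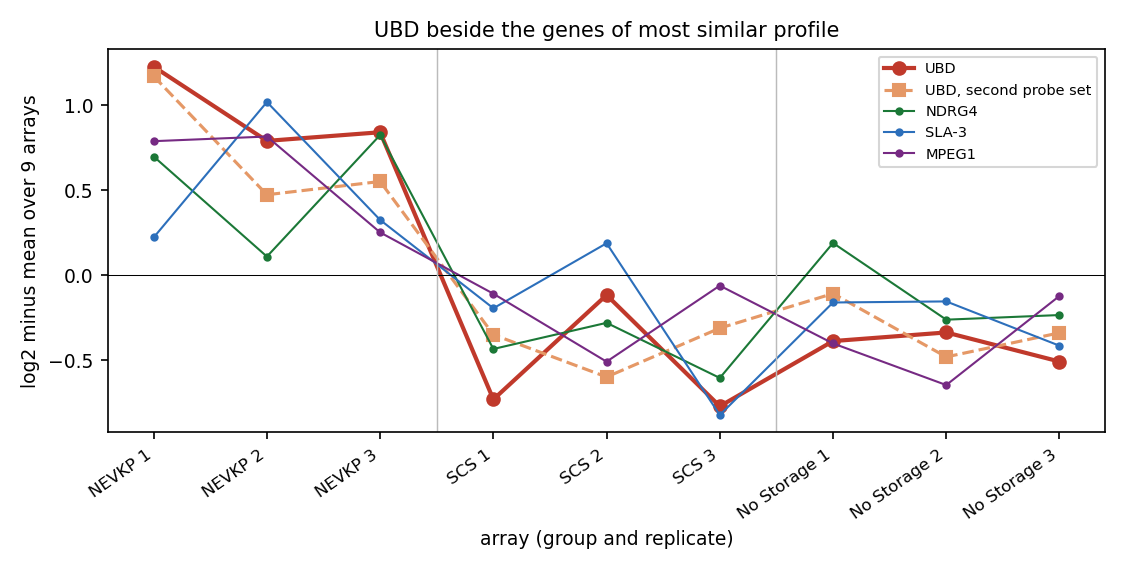
Log2 intensity minus the mean over all 9 arrays for UBD, its second probe set and the 3 genes of smallest distance, by array (lines join points of 1 probe set for reading only). The second probe set follows UBD at a distance of 0.32, and NDRG4 at 0.38 departs from it most visibly in NEVKP replicate 2.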

How the data were processed

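The values are log2 intensities that the authors deposited, 1 per probe set and array. RMA (background correction, scaling between arrays, 1 summary value for every probe set) and limma 3.34.14 stand in the submitters' processing notes. For the array's exact type and for filters, the sources used here give nothing; neither dates nor batches of scanning are stated, and raw scans were not used. Of 19124 probe sets 13323 had 1 annotation symbol, 357 several and 5444 none; 12918 symbols stood unchanged in RefSeq's table and 7 were updated by gene ID. The probe set of highest mean represented its gene. The gene and all lists were chosen with earlier results of these data known.

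Group was the only factor of the linear model (limma 3.58.1, R 4.3.3, moderated by eBayes) over all 9 arrays, each from a different animal by its label. Benjamini-Hochberg adjustment covered all probe sets. The model was tested on simulated data. Named genes are UBD, its partners and neighbours, the 12 nearest profiles, fixed genes, and up to 6 members of each list and comparison by unadjusted p. Alternatives were the prior, array weights, a filter on dim probe sets, centring, the replicate block, fits of only the groups compared, and omission of each array.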

Additional observations from a re-analysis of the deposited data

How the results depend on the processing

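UBD kept its direction in NEVKP against No Storage and against SCS in every alternative run. Of these, the block, the prior, the dim filter and fits of only the groups compared cannot change a difference of group means. Omitting or weighting arrays could not turn its sign either, because every NEVKP array lay above every other array. The kept direction is thus no separate support. Leaving out each array in turn gave 1.23 to 1.44 against No Storage, 1.35 to 1.70 against SCS, and -0.34 to -0.01 for SCS against No Storage. Of the alternatives chosen after seeing the data, the second UBD probe set gave 1.04 and 1.15 for NEVKP against No Storage and SCS, and omission of SCS replicate 2 and NEVKP replicate 2 gave 1.78 against SCS. Deviations of same-numbered arrays of different groups had 9 correlations of -0.14 to 0.13, and those of differently numbered arrays ran from -0.15 to 0.17. The labels give no pairing, and a shared batch was not tested. The replicate number as a block left the UBD differences at 1.36, -0.13 and 1.49, as it must in this balanced design. With that block 27 probe sets were past the threshold in SCS against No Storage, against 31 without it. That count of 31 became 83 with a trended and robust prior, 93 with array weights, 82 without the dimmest 25% and 49 with centred arrays, and ran from 0 to 158 without single arrays. It was 0 without SCS replicate 2 and No Storage replicates 1 and 3, 1 or 2 without NEVKP replicates 1 or 3, SCS replicate 1 or No Storage replicate 2, 147 without SCS replicate 3 and 158 without NEVKP replicate 2. In NEVKP against SCS it was 0, with 1434 at an unadjusted p under 0.05, but 1 with array weights and 0 to 1 without single arrays. In both cases, the array weights and the fit without SCS replicate 2, that probe set was UBD, which is no test because UBD was chosen on these arrays. In NEVKP against No Storage it was 0 throughout, with 1735 at an unadjusted p under 0.05. The cause was not tested.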
